A study of Mus musculus with 4 samples.

Results

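miR-338, its antisense partner miR-3065 and miR-219, miRNAs known from myelinating glia, were followed in small RNA libraries of the mouse main olfactory epithelium. Members were all rows of the authors' deposited table whose names begin with miR-338, miR-3065 or miR-219, which gave 10 of 1167 rows, 4 at the miR-338/miR-3065 locus and 6 of miR-219. miR-338-3p and miR-3065-5p had the same means in both genotypes and were counted once, which left 9 distinct rows. The tissue came from male C57BL/6 mice 3 months of age, with 2 wild-type libraries and 2 libraries of AC3-/- mice, which lack adenylyl cyclase 3, the enzyme behind the cAMP signal of odour detection. The labels do not name how the AC3-/- allele was made, nor whether each library is a different mouse, so p-values reflect the spread between libraries, which may be technical. The epithelium was sampled whole, so the libraries mix sensory neurons, supporting and basal cells, ciliated airway cells, blood and the glia that wrap olfactory axons, and fewer cells of a type cannot be told apart from less RNA per cell.

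A miRNA is cut from a hairpin precursor and represses mRNAs that match its seed, bases 2 to 8 from its 5′ end. miR-219 and miR-338 are among the miRNAs that rise most as oligodendrocytes, the myelin-forming cells of the central nervous system, mature, and they repress transcription factors that hold precursor cells in an immature state. In the olfactory system the axons of sensory neurons are unmyelinated and are wrapped in bundles by olfactory ensheathing cells, a glial type that shares features with Schwann cells, the glia of peripheral nerves. miR-338 is not restricted to glia: in the rat it has also been studied in axons of sympathetic neurons. Small RNA libraries hold no mRNA, so no glial protein-coding marker could be set beside these miRNAs.

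The mature sequences are shown first because the miR-338/miR-3065 and miR-219 rows are copied from opposite strands of the same places in the genome, which bears on every count below. RefSeq (GRCm38.p6) gave a mature sequence for 8 of the 10 members, and mmu-miR-3065-3p and mmu-miR-219a-2-3p are named only. Capitals mark the seed.
mmu-miR-338-3p: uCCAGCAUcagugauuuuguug
mmu-miR-3065-5p: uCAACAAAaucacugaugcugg
mmu-miR-338-5p: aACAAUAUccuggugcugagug
mmu-miR-219a-5p: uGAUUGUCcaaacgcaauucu
mmu-miR-219a-1-3p: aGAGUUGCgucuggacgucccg
mmu-miR-219c-5p: gGACGUCCagacgcaacucucg
mmu-miR-219b-5p: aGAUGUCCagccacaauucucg
mmu-miR-219b-3p: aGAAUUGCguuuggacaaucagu

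No seed was shared among these 8 miRNAs, and none was found in any other of the 947 rows of the table with a RefSeq mature sequence. Mir338 lies on the minus strand of chromosome 11 from 120014765 to 120014862, in an intron of Aatk, a kinase gene on the same strand from 120007313 to 120047167. Mir3065 lies on the plus strand from 120014767 to 120014853, antisense to Aatk, and its 87 bases are the exact reverse complement of Mir338. The hairpins are shown 5′ to 3′ with the annotated mature arms in capitals, so that the overlap can be read.
Mir338: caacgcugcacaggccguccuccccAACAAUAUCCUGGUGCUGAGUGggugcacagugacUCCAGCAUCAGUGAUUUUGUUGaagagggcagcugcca
Mir3065: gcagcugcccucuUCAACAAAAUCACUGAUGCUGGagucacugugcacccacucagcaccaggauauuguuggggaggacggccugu

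miR-219a-5p is made from hairpins at 2 places that the mature sequence does not tell apart. Mir219a-1 is on the minus strand of chromosome 17 from 34024983 to 34025092, overlapping an exon of the lincRNA Gm26940 and 303 bases from Ring1, and Mir219a-2 is on the minus strand of chromosome 2 from 29845631 to 29845727, outside other annotated genes and 629 bases from Urm1 (GENCODE M21, GRCm38). Each has an antisense hairpin on the plus strand, Mir219c (34025012 to 34025071, 60 bases) and Mir219b (29845647 to 29845711, 65 bases), and each of these is an exact reverse complement of its partner. The hairpins follow, again with the annotated arms in capitals.
Mir219a-1: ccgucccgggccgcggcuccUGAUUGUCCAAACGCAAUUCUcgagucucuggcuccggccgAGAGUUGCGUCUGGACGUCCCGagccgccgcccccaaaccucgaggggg
Mir219c: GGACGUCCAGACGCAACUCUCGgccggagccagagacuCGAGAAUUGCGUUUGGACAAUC
Mir219a-2: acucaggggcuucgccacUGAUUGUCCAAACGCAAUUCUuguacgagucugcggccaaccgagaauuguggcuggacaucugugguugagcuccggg
Mir219b: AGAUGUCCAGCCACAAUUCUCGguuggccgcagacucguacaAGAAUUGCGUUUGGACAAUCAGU

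The authors' deposited table gives 1 mean of normalised read counts per genotype, and the whole reads of each library were worked back from these means, with 1 solution for every member. The libraries are called a and b within a genotype, letters that carry no replicate number. Summed over all rows, the AC3-/- means came to 8739148 and the wild-type means to 12320877, standing for 19235424 to 20028575 and 21166271 to 23101599 reads over the 2 libraries of each genotype. The wild-type libraries stood further apart than the AC3-/- ones: of 449 miRNAs with library values and an average of at least 10, 116 differed 2-fold or more within wild type and 26 within AC3-/-. No member passed an adjusted p of 0.05 in the authors' deposited table, where 1 of 1167 rows did (0.0857%). 1 of the 9 distinct members, higher in AC3-/-, fell under 0.05 before adjustment, against 3.51% of all rows, 1.54% in that direction and 1.78% of the rows averaging under 10.

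At the miR-338 locus, reads were of moderate abundance and the genotypes overlapped. mmu-miR-338-3p, the arm usually loaded as the guide strand, ranked 200 of 1167 rows by average level. It had 433.0 and 332.2 normalised reads in AC3-/- (library a, then b) and 218.9 and 736.7 in wild type, in the same order, from 497, 365, 206 and 630 reads. Wild-type library b was the highest and wild-type library a the lowest, with both AC3-/- libraries between them. Its mean in the authors' deposited table was 382.6 for AC3-/- and 477.8 for wild type, with -0.21 for the log2 fold change, which the authors shrank toward 0, and 0.947 for the adjusted p.

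mmu-miR-338-5p, the other arm of the hairpin, had 256.1 and 183.0 normalised reads in AC3-/- and 167.9 and 438.5 in wild type. mmu-miR-3065-3p, from the antisense hairpin, had 248.3 and 172.0 in AC3-/- and 166.8 and 410.5 in wild type. Both had the order of miR-338-3p, with the wild-type libraries at the ends. In the authors' deposited table their log2 fold changes were -0.33 each, with an adjusted p of 0.940 each.

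A limma fit to log2(normalised value + 1) over all 449 miRNAs gave log2 differences, AC3-/- minus wild type, of -0.08 for miR-338-3p (standard error 0.63, adjusted p = 0.974), -0.33 for miR-338-5p (standard error 0.55, adjusted p = 0.932) and -0.34 for miR-3065-3p (standard error 0.53, adjusted p = 0.932). Each difference was smaller than its standard error. It called 0 of the 6 distinct members tested and 0 of 449 miRNAs (0.0%), and 16 miRNAs (3.56%), none of them a member, fell under 0.05 before adjustment. The sign rested on which libraries were used: without wild-type library b the log2 difference of miR-338-3p was 0.79 (limma adjusted p = 0.445), and without wild-type library a it was -0.96 (limma adjusted p = 0.0880). Without AC3-/- library a it was -0.27 (limma adjusted p = 0.999), and without AC3-/- library b 0.11 (limma adjusted p = 0.993). Dividing each mean by the sum of all means of its genotype raised every log2 ratio by 0.50 and moved the median of rows averaging at least 10 from -0.05 to 0.44. The log2 ratio of means of miR-338-3p went from -0.32 to 0.17, on the other side of 0 and below that median under both scalings, with 43.8 of every 1000000 normalised reads in AC3-/- and 38.8 in wild type.

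**Figure D1:**
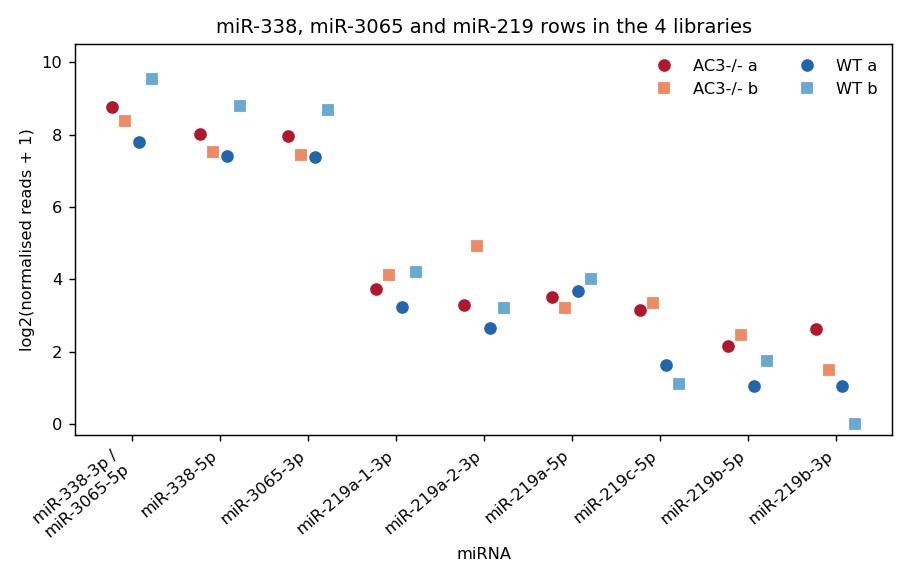
Level of each member (vertical axis, log2 of normalised reads plus 1) in the 4 libraries; each point is 1 library, red and orange for AC3-/- libraries a and b, dark and light blue for wild-type libraries a and b. For the miR-338 and miR-3065 rows the wild-type libraries lie at both ends, at 218.9 and 736.7 normalised reads for miR-338-3p, while for miR-219c-5p both AC3-/- points, at 7.84 and 9.102 normalised reads, lie above both wild-type points.

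The ratio of the arms moved less than the level of the locus. miR-338-5p made up 37.2% of the reads of both arms in AC3-/- library a (95% Wilson interval 33.9 to 40.6), 35.5% in AC3-/- library b (31.7 to 39.5), 43.4% in wild-type library a (38.4 to 48.5) and 37.3% in wild-type library b (34.4 to 40.3). Wild-type library a had the highest share. Its interval overlapped those of the other 3, which does not decide whether the shares differ. These intervals cover counting error only, and because ligation and PCR favour some sequences the share is not a ratio of molecules. Between the wild-type libraries the level of miR-338-3p differed 3.37-fold.

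Rows from opposite strands of the miR-338 locus had equal or nearly equal reads in every library. mmu-miR-338-3p and mmu-miR-3065-5p, which overlap over 21 bases as reverse complements, had 497, 365, 206 and 630 reads each. miR-3065-3p had 285, 189, 157 and 351 reads against 294, 201, 158 and 375 for miR-338-5p, which is 96.9%, 94.0%, 99.4% and 93.6% of them. A read of one strand does not match the other strand's miRNA in its own direction. The sources used here do not give the strand setting of the authors' counting, so the miR-3065 rows cannot be taken as separate observations. In the counts of distinct members only miR-3065-5p was merged, with miR-338-3p, and miR-3065-3p was kept as a row. Over the table, 29 pairs of mature miRNAs annotated on opposite strands shared at least 15 bases. Of the 23 pairs with at least 10 normalised reads in the higher row, 2 were identical, 10 in all had a lower row of at least 90% of the higher one, and 11 had a lower row under 50%.

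**Figure D2:**
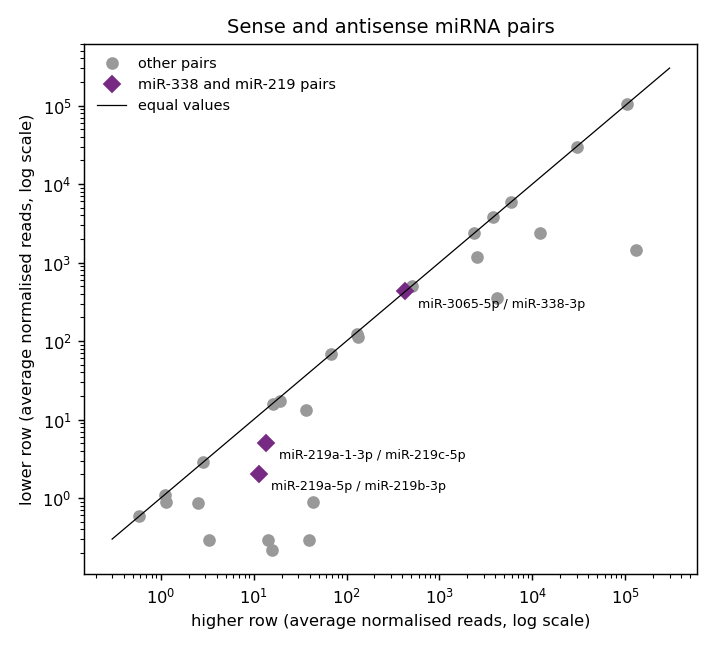
Average level of the lower row (vertical axis) against the higher row (horizontal axis) for 29 pairs of miRNAs annotated on opposite strands, in normalised reads on log scales; the line marks equal values and purple diamonds are member pairs. miR-338-3p and miR-3065-5p lie on the line, while miR-219c-5p and miR-219b-3p lie below it at 37.0% and 17.8% of their partners.

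miR-219 was near the lower end of what the libraries could measure. mmu-miR-219a-5p, the guide strand known for oligodendrocyte maturation, had 10.45 and 8.192 normalised reads in AC3-/- and 11.69 and 15.2 in wild type, from 12, 9, 11 and 13 reads, and ranked 481 of 1167. Both AC3-/- libraries were below both wild-type libraries after scaling, while the reads before scaling overlapped. The authors' deposited table gives means of 9.323 and 13.45, a log2 fold change of -0.34 and an adjusted p of 0.940. The limma difference was -0.48 with a standard error of 0.52 (adjusted p = 0.932), so it was within its error.

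The opposite arms of the miR-219a hairpins were at levels of the same order as the guide strand. miR-219a-1-3p had 12.2 and 16.38 normalised reads in AC3-/- and 8.501 and 17.54 in wild type, from 14, 18, 8 and 15 reads, and the groups overlapped. The limma difference was 0.19 with a standard error of 0.57 (adjusted p = 0.961). miR-219a-5p, which can come from either hairpin, held 39.6% of its reads and those of miR-219a-1-3p together in AC3-/- (95% Wilson interval 27.6 to 53.1) and 51.1% in wild type (37.2 to 64.7). These intervals, from 53 and 47 reads, overlap, which does not decide whether the arm share differs, and no test of that was run.

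miR-219a-2-3p, the arm specific to the chromosome 2 hairpin, was set apart by 1 library. It had 8.711 and 29.13 normalised reads in AC3-/- and 5.313 and 8.186 in wild type, from 10, 32, 5 and 7 reads. AC3-/- library b was more than 3-fold above every other library, and AC3-/- library a lay just above wild-type library b. The authors' deposited table gives means of 18.92 and 6.749, with a log2 fold change of 0.79 (adjusted p = 0.940). The limma difference of 1.17 had a standard error of 0.73 (adjusted p = 0.932) and was 0.35 without AC3-/- library b (limma adjusted p = 0.993). The gap between the AC3-/- libraries was among the widest: 7 of 449 miRNAs, this one included, lay as far apart there.

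miR-219c-5p, from the strand opposite Mir219a-1, was the member with the smallest p. It had 7.84 and 9.102 normalised reads in AC3-/- and 2.125 and 1.169 in wild type, from 9, 10, 2 and 1 reads. The groups did not overlap, but the wild-type values rest on 2 and 1 reads. The authors' deposited table gives means of 8.471 and 1.647, with a log2 fold change of 1.01, p = 0.0448 before adjustment and an adjusted p of 0.940. From 19 reads in AC3-/- and 3 in wild type the ratio after scaling was 5.06, with an exact 95% counting interval of 1.49 to 26.7. That interval pools the libraries of each genotype and leaves out the spread between them, so it does not test the genotypes. With an average under 10 it was outside the main limma fit, and with no filter on the average limma put the log2 difference at 1.86 (standard error 0.62, limma adjusted p = 0.773).

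The rows from the strand opposite Mir219a-2 were scarcer still. miR-219b-5p had 4 and 5 reads in AC3-/- and 1 and 2 in wild type, a scaled ratio of 2.40 with an exact 95% counting interval of 0.598 to 13.8. miR-219b-3p had 6, 2, 1 and 0 reads, a ratio of 6.40 with an interval of 0.857 to 284.0. Both intervals include 1, and the adjusted p was 0.940 for both in the authors' deposited table. 4 of the 9 distinct members had both AC3-/- libraries above both wild-type libraries, namely miR-219a-2-3p, miR-219b-5p, miR-219b-3p and miR-219c-5p, where 14.8% of 1124 rows with library values did, and 21.5% of those averaging 1 to 10. 1 of the 9, miR-219a-5p, had both below, against 13.4% of the 1124 rows and 16.9% of those averaging at least 10, as it does. 3 of these 4 come from 1 place on chromosome 2, 2 of them from 1 hairpin, so they are not independent, and 2 libraries against 2 cannot give an exact permutation p below 0.333.

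The miR-219 rows of opposite strands were less equal in reads than the miR-338 pairs. miR-219c-5p reads were 64.3% and 55.6% of those of its partner miR-219a-1-3p in AC3-/- and 25.0% and 6.67% in wild type. As a share of the reads of both rows miR-219c-5p held 37.3% in AC3-/- (95% Wilson interval 25.3 to 51.0) and 11.5% in wild type (4.0 to 29.0). These intervals overlap, but overlap does not decide whether shares differ, and no test of that was run. miR-219b-5p held 9 of the 51 reads of itself and miR-219a-2-3p, its partner on the opposite strand, in AC3-/- (a share with an interval of 9.57 to 30.3%) and 3 of 15 in wild type (7.05 to 45.2%), intervals that also overlap. miR-219b-3p and miR-219a-5p, reverse complements over 21 bases, had 6 and 12 reads in AC3-/- library a, 2 and 9 in AC3-/- library b, 1 and 11 in wild-type library a, and 0 and 13 in wild-type library b. Summed over all 6 rows, miR-219 had 47.91 and 69.18 normalised reads in AC3-/- and 29.75 and 44.44 in wild type. The strand setting of the counting is not given, so this sum may hold reads counted in both rows of a pair. The 3 miR-219a rows alone overlapped between genotypes, at 31.36 and 53.7 against 25.5 and 40.93, while the 3 miR-219b and miR-219c rows had 16.55 and 15.47 against 4.25 and 3.508. The groups of the full sum did not overlap, as in 14.8% of 1124 single rows with AC3-/- higher. This gap came with the miR-219b and miR-219c rows, already seen to be higher in AC3-/-. The nearest libraries of the full sum, AC3-/- library a and wild-type library b, had exact Poisson intervals of 36.1 to 62.4 and 31.4 to 61.0. These intervals overlap, and they take each read as counted once.

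**Figure D3:**
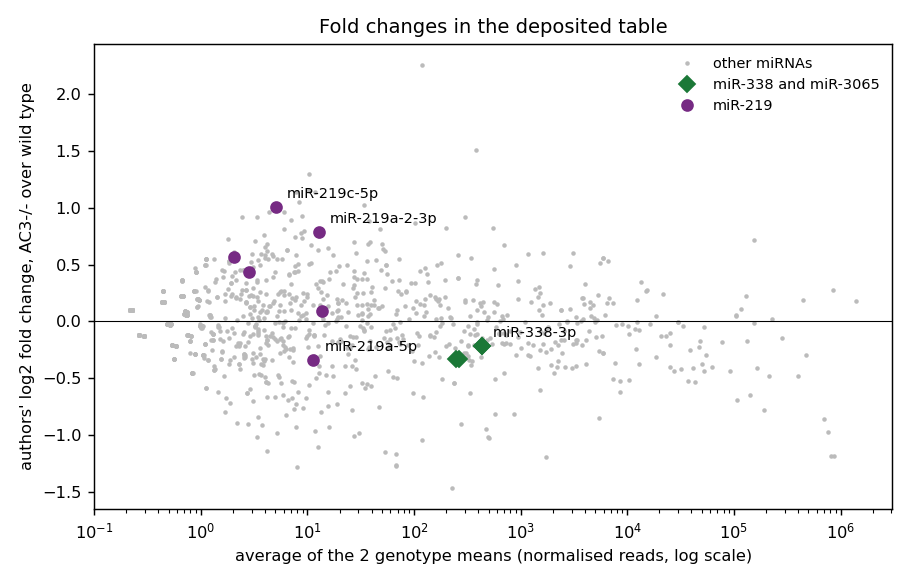
The log2 fold change of the authors' deposited table, AC3-/- over wild type (vertical axis), against the average of the genotype means in normalised reads (horizontal axis, log scale); each point is 1 miRNA. The miR-338 and miR-3065 rows (green) lie between -0.33 and -0.21 amid miRNAs of like level, and the miR-219 rows (purple) lie between -0.34 and 1.01 at low levels, where fold changes of other miRNAs spread as widely.

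Across the members, the authors' deposited table puts 5 of the 9 distinct rows above 0 and 4 below. Their median log2 fold change was 0.09, beside -0.01 over all 1167 rows, and it was -0.06 when the identical pair was counted as 2 rows. The 4 rows of the miR-338 locus, 2 of them identical, were below 0 with a median of -0.27. When means were divided by their sum they lay between 0.03 and 0.17, above 0 but below the median of 0.44 to which that scaling moved all rows averaging at least 10. For miR-219 the authors' deposited table has 5 of 6 rows above 0 and a median of 0.50. Since no member passed the adjusted threshold, these are descriptions of the means.

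Other miRNAs linked to oligodendrocyte or Schwann cell differentiation showed no member past the threshold either. Of 13 listed, 0 fell under 0.05 in the authors' deposited table even before adjustment, against 3.51% of all rows, and the list's median was -0.02 for the log2 fold change. The most abundant was miR-146a-5p, known mainly from inflammation, at a mean of 201431 for AC3-/- and 105973 for wild type. It also had the largest log2 fold change of the list, at 0.72 with an adjusted p of 0.940. miR-138-5p, which in mouse oligodendrocyte precursors promotes the early stages of differentiation, had 257.9 and 187.5 normalised reads in AC3-/- and 177.5 and 709.8 in wild type. Its libraries stood in the same order as those of miR-338-5p, with wild-type library b highest and wild-type library a lowest. miR-138-5p is also made in neurons, and it was named after its values were seen. Over the 9 miRNAs of the list with values in every library the median log2 ratio of wild-type library b to a was -0.31, and the summed levels were 51640 and 54500 in AC3-/- and 59080 and 44510 in wild type. Of these 9, miR-138-5p alone was far above 0, at 1.99. miR-19b-3p was at 0.04, miR-140-5p at 0.01, and the rest were below 0.

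The high value of the miR-338 rows in wild-type library b went with differences in markers of other cell types. Of 449 miRNAs, 22 had a ratio of wild-type library b to a at least as high as that of miR-338-3p, which was 1.75 on the log2 scale, and the median of all was 0.04. All 6 distinct members with an average of at least 10 were higher in wild-type library b, as were 233 of all 449 miRNAs. The rows of the miR-338 locus among these 6 are not independent. Of the members under 10, miR-219c-5p and miR-219b-3p were lower in library b and miR-219b-5p was higher. In the oligodendrocyte and Schwann cell list 3 of 9 miRNAs were higher in wild-type library b, and 4 of 6 neuronal ones. The 4 leukocyte miRNAs were all lower there, with a median log2 ratio of -1.85 and summed levels of 9509 and 12190 in AC3-/- and 10030 and 2931 in wild type. The 2 multiciliated-cell miRNAs with library values were lower too, with a median of -2.97 and sums of 5296 and 7832 in AC3-/- and 11270 and 1144 in wild type. The 3 red blood cell miRNAs had a median of -0.72, with sums of 6068 and 4644 in AC3-/- and 5519 and 3081 in wild type. miR-141-3p, the 1 of 6 sensory-epithelium miRNAs with values in every library, was higher in library b, at 41590 against 17620 in library a, with 18850 and 22270 in AC3-/-. No defining marker of these lists was at 0. Their part in the miR-338 values was not tested.

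**Figure D4:**
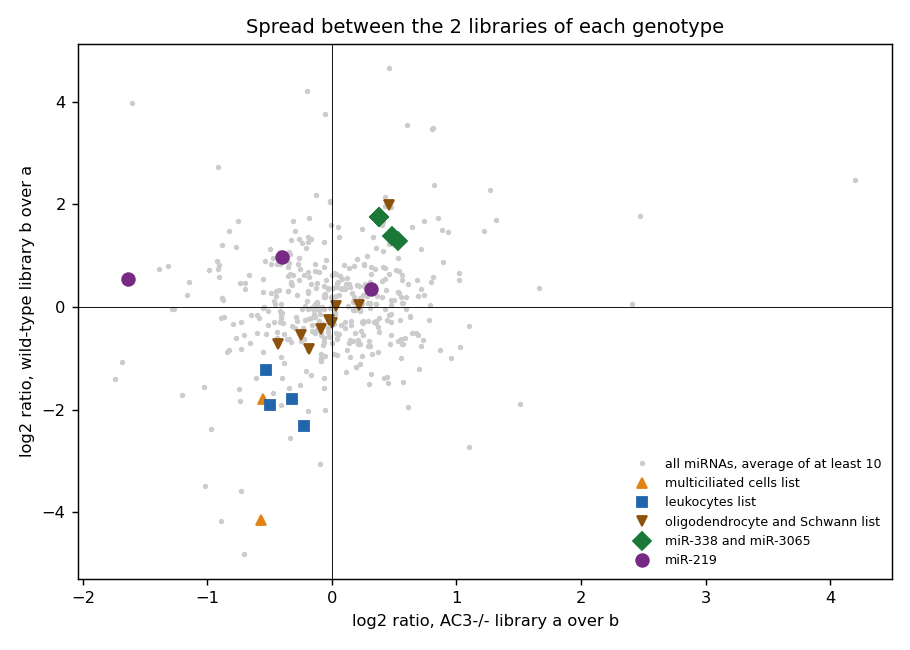
Log2 ratio of wild-type library b over a (vertical axis) against AC3-/- library a over b (horizontal axis) for 449 miRNAs with an average of at least 10 normalised reads; each point is 1 miRNA and 1 was added to each value. The miR-338 and miR-3065 rows (green diamonds) lie at 1.29 to 1.75 on the vertical axis, leukocyte and multiciliated-cell miRNAs lie below 0, and miR-219a-2-3p (purple) lies far to the left, at -1.63.

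In the authors' deposited table the neuronal list held the 1 miRNA past the threshold, miR-124-3p, at 228.2 and 183.0 normalised reads in AC3-/- and 21.25 and 37.42 in wild type by library. miR-338-3p did not follow it, being lowest in wild-type library a and highest in wild-type library b. Like miR-124-3p, miR-219c-5p was low in both wild-type libraries, but at far fewer reads, 2 and 1 there. Both AC3-/- libraries were above both wild-type ones in 21.5% of rows averaging 1 to 10. The most abundant neuronal member, miR-218-5p, had a log2 fold change of 0.26, and the list's median was 0.13. For the other lists the medians of the log2 fold change were 0.46 for leukocytes, 0.03 for multiciliated cells, -0.02 for red blood cells and -0.92 for the sensory epithelium. In the sensory epithelium list 4 of 6, all lower in AC3-/-, fell under 0.05 before adjustment and none after it. Over all 1167 rows, 23 were lower in AC3-/- under 0.05 before adjustment. The most abundant members of these other lists were miR-142a-3p (0.56), miR-34c-5p (0.02), miR-451a (0.33) and miR-200b-3p (-1.19), and those with the largest changes were miR-155-5p (0.60), miR-34b-5p (0.10), miR-451a and miR-200b-3p.

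Among 249 other miRNAs with an average of at least 100, the patterns nearest to miR-338-3p over the 4 libraries were those of miR-9b-5p, miR-700-3p, miR-1843b-3p, miR-7a-1-3p and miR-335-5p, in this order. Likeness was the root mean square difference of log2 values centred on their own mean, which ran from 0.121 to 0.205 for these 5, beside a median of 0.685. miR-9b-5p had 331.9 and 251.2 normalised reads in AC3-/- and 204.0 and 621.0 in wild type, the same order of libraries as miR-338-3p. For miR-219a-1-3p the nearest 5 were miR-3102-3p, miR-29a-5p, miR-151-5p, miR-29b-3p and miR-151-3p, at 0.0690 to 0.137 beside a median of 0.485, but with 8 to 18 reads a library its own pattern is uncertain. With 4 libraries, of which 1 stands apart, many miRNAs can share an order.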

How the data were processed

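Small RNA libraries of 2 wild-type and 2 AC3-/- samples were grouped by title. RNA was extracted with Trizol and adaptors were ligated to both ends of small RNAs before PCR and selection by length on a gel, per the labels' protocols. Bowtie, DESeq 1.8.3 and the GRCm38 build are listed, without roles, in the submitters' processing notes; the sources used here do not give the read counter, its strand setting or the filters. The deposited table of 1167 rows holds, per the file headers and the values, a signal per genotype (the mean of normalised read counts). The other deposited columns are the authors' log2 fold change, which is shrunken toward 0, and the authors' p-value before and after adjustment.

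A deposited mean is the sum of whole numbers of 2 step sizes, 1 for a read of each library. Solving for whole reads, with means given to 10 significant digits, left 1 solution in 1125 rows (96.4%) for AC3-/- and 1134 (97.2%) for wild type, including every row under 10000. The size factors came to 1.148 (a) and 1.099 (b) in AC3-/- and 0.9411 (a) and 0.8551 (b) in wild type. The recovery and the fit were tested on simulated data with the same dispersion in both genotypes. In the real libraries the log2 ratio within a genotype had a standard deviation of 1.11 in wild type and 0.569 in AC3-/-. The simulation therefore does not show how the fit performs on these libraries. Recovered values were fitted with limma 3.58.1 (R 4.3.3), its prior variance following intensity, on log2(normalised value + 1) for rows averaging at least 10, with Benjamini-Hochberg adjustment over all rows fitted; adding 1 understates the change of low miRNAs. Shares have Wilson and counts have exact 95% intervals, which cover counting error only, since no molecular identifiers are described.

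The members and lists were chosen with earlier results of these data known. Every member was named, and of each other list the most abundant and most changed; miR-138-5p and miR-141-3p were named after their values were seen. The nearest patterns were the 5 smallest distances for the most abundant miR-338 and miR-219 rows. Alternatives were the pseudocount, the filter, the scaling, the trend and leaving out each library.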

Additional observations from a re-analysis of the deposited data

How the results depend on the processing

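No member passed the adjusted threshold in the authors' deposited table, also when p-values were adjusted over rows averaging at least 10, and 1 (miR-219c-5p) did at an unadjusted p under 0.05. In the limma fits 0 members passed with all 4 libraries, with a pseudocount of 10, with no filter on the average, scaled by recovered reads, without the trend, and with any 1 library left out, although 63 of 449 miRNAs passed without wild-type library a, where the spread comes from AC3-/- alone and is assumed to hold for the lone wild-type library, and 2 without wild-type library b. The 40 member fold changes under other pseudocounts or scalings count the identical pair as 2 rows, and 36 kept their sign. Adding the same number to both means cannot turn the sign of their ratio, so of these settings only division by the sum could. The other 4 turned when means were divided by their sum: miR-338-3p and miR-3065-5p to 0.17 each, miR-338-5p to 0.03 and miR-3065-3p to 0.04; that scaling raised every log2 ratio by 0.50 and the median of rows averaging at least 10 from -0.05 to 0.44, so a row above 0 could not turn and these 4 stayed below the median. Of 56 limma differences, which also count the identical pair as 2 rows, 46 kept their sign. Scaled by recovered reads, miR-338-3p and miR-3065-5p turned to 0.01 each. Those totals leave out rows not solved in both genotypes, which are among the most abundant, so they are not library depths. Rows with 1 solution held 785418 and 778787 reads in AC3-/- libraries a and b, out of 19235424 to 20028575 for both. With 1 library left out, the log2 difference ran from -0.96 to 0.79 for miR-338-3p and miR-3065-5p, from -1.01 to 0.36 for miR-338-5p, from -0.99 to 0.31 for miR-3065-3p and from -0.29 to 0.67 for miR-219a-1-3p; for miR-219a-2-3p (0.35 to 1.98) and miR-219a-5p (-0.66 to -0.31) it kept its sign. The cause of these turns was not tested. No paired analysis was possible because the recovered libraries carry no replicate number. Depth limits the miR-219 rows most, at 0 to 32 reads a library.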
